A study of Mus musculus with 18 samples.

Results

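The comparison of Heavy with Light polysome RNA in control cells takes 6 of the 18 libraries of the study, 3 Heavy and 3 Light, chosen by their labels, and covers all genes of the deposited table. The cells are a murine osteosarcoma line derived from tumours of mice with conditional deletion of p53 and Rb, on a mixed strain background, at postnatal day 299. All carry floxed Prmt1 alleles (Prmt1f/f) and stably express CreER, a Cre recombinase that tamoxifen switches on, so the control cells, labelled wild type, differ from unmodified cells in both respects. Knockout cells, used here only for comparison, are labelled Prmt1-/-, received tamoxifen (4OHT) and give another 3 Heavy and 3 Light libraries. Control cells received the vehicle ethanol. Cytoplasmic lysate of cells washed in cycloheximide was kept as Total RNA or spun through a 10 to 50% sucrose gradient. Fractions with more than 3 ribosomes on a message were pooled as Heavy, and fractions with fewer than 3 as Light. The labels do not say whether ribosome-free RNA went into Light, nor whether replicate libraries were grown as separate cultures. The p-values therefore describe how far these particular libraries scatter, and part of that scatter may be technical.

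Polysome fractionation sorts messages by the number of ribosomes they carry at one moment. That number is set by how often ribosomes start on a message, how fast they move and how long the coding region is, so a short coding region has room for few ribosomes even when it is read efficiently. Several classes of message are known for special control: messages with a terminal oligopyrimidine (TOP) start for ribosomal proteins and elongation factors, messages with short upstream reading frames such as Atf4, ferritin messages with an iron-responsive element, and selenoprotein messages that read the stop codon TGA as selenocysteine. Levels are given as a message's part of its library, per 1000000 reads (CPM). Higher in Heavy means a larger part of the Heavy than of the Light library and is no measure of how fast a protein is made. In bulk RNA fewer cells of a type and less RNA per cell cannot be told apart.

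The deposited values correspond to depths of 35.7 to 44.2 M reads in the Heavy and 38.7 to 57.9 M reads in the Light control libraries, where M stands for 1000000. Replicates of a pool correlated at 0.997 to 0.998 across genes (log2 values), but differed by more than counting noise, with a chi-square of 19.1 to 41.7 per degree of freedom. The osteoblast genes Runx2, Col1a1, Sparc, Spp1 and Alpl were present in every control library. The late osteoblast genes Bglap and Ibsp and the osteocyte gene Sost were at or near 0. Summed macrophage markers reached 4.91 to 5.85 CPM over the 6 libraries, against 4215 to 5697 CPM (Heavy) and 2525 to 2977 CPM (Light) for the osteoblast list. Most of the macrophage sum came from Csf1r (means of 3.85 CPM in Heavy and 3.98 CPM in Light) and Cd68 (1.46 and 0.815 CPM). Ptprc and Emr1 were at 0 in every Heavy library. Endothelial markers summed to 86.0 to 89.2 CPM in Heavy and 104 to 124 CPM in Light, nearly all from Eng (means of 86.8 and 112 CPM).

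Of 17515 genes tested, 4128 were higher and 4751 lower in Heavy than in Light control libraries at a Benjamini-Hochberg adjusted p under 0.05 in limma. These are 23.6% and 27.1% of the genes tested. The low end was wider than the high end: 513 called genes were at least 4-fold lower in Heavy, against 10 that were at least 4-fold higher. Among 9236 genes averaging 5 CPM or more over the 6 libraries, log2 changes of Heavy over Light ran between -3.34 and 2.13 with a median of 0.14. For 7589 of those, or 82.2%, the Heavy and Light libraries did not overlap, with 3992 above and 3597 below. Among the same 9236 genes 3695 were called higher and 3299 lower. Calls were thus common, and counts in a group of genes are to be read against these shares. For lists made up mostly of expressed genes, the counts among genes of at least 5 CPM are the closer measure. The calls split 46.5% higher among the deposited values, 54.6% after quantile normalization and 50.2% after median-of-ratios scaling.

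The most strongly Light-sided messages encode very small proteins. The 12 lowest named genes were Tmsb10, Tmsb4x, Gng5, Atox1, Rps29, Cox8a, Rps27l, Usmg5, Rpl39, Rpl41, Tomm6 and Uqcr11, with coding regions of 78 to 255 nt. Tmsb10, which encodes thymosin beta 10, a peptide that binds actin monomers, had 58.6, 71.2 and 51.5 CPM in Heavy libraries, against 492, 761 and 624 CPM in Light libraries. All 3 Heavy libraries lay far below all Light libraries. The log2 change was -3.34 (SE 0.22, limma adjusted p = 6.45e-09). Its relative Tmsb4x had 64.6, 67.6 and 64.4 CPM in Heavy against 541, 705 and 669 CPM in Light (-3.26, SE 0.21, limma adjusted p = 6.16e-09). Rpl41, a basic peptide of the large ribosomal subunit and the shortest coding region of the named genes, had 119, 140.2 and 112 CPM in Heavy, against 907, 1423 and 910.1 CPM in Light (-3.09, SE 0.20, limma adjusted p = 5.98e-09). The whole coding regions of Rpl41 (78 nt) and Tmsb10 (135 nt) are shown as examples of such short frames. They were spliced from chr10:128548387-128548960 and chr6:72957618-72958012 (GENCODE M21 transcripts, build GRCm38 or mm10, both on the minus strand), with start and stop codons in capitals.
Rpl41: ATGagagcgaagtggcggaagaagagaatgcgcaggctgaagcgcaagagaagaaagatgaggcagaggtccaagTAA
Tmsb10: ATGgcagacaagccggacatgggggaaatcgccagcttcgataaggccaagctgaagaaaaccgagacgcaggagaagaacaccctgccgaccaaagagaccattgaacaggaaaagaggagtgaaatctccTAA

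The pattern was broad. Among genes of at least 5 CPM, 195 of 197 with a coding length up to 300 nt were called lower in Heavy, or 99.0%, with a median log2 change of -2.38. The exceptions were Smim1, whose gene overlaps Lrrc47, and the selenoprotein gene Selk. Over 300 and up to 600 nt 85.3% were lower (median -1.42, n = 1084), and over 600 and up to 900 nt 49.5% were lower and 25.1% higher (median -0.33, n = 1332). Above that the balance turned. The median was 0.34 over 900 and up to 1500 nt (n = 2586) and 0.55 over 1500 and up to 2700 nt, where 56.9% of 2363 genes were higher and 17.7% lower. Longer messages came back toward 0, with medians of 0.43 over 2700 and up to 4500 nt (n = 1026) and 0.18 above 4500 nt (n = 394). Across 8982 genes Spearman's rho between coding length and the log2 change was 0.43, a description over genes of the same 6 libraries and not over replicates. The same rank correlation was -0.04 with 5′ UTR length, 0.00 with 3′ UTR length and -0.11 with the GC content of the coding region.

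**Figure D1:**
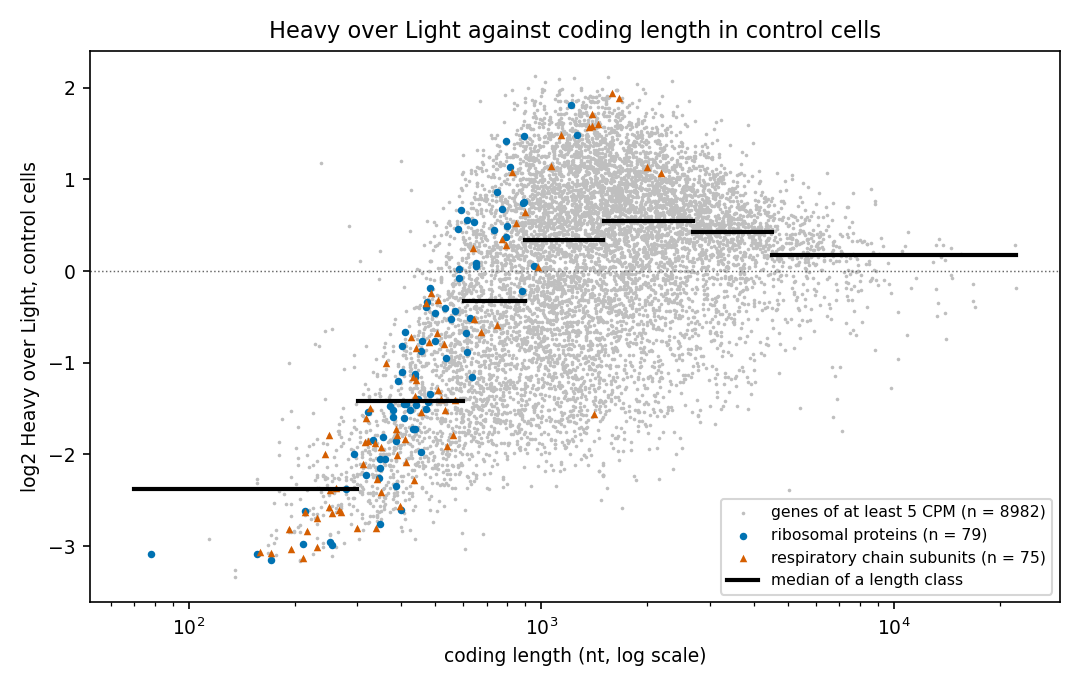
Log2 Heavy over Light in control cells (vertical axis) against coding length in nt on a log scale (horizontal axis), with one point per gene of at least 5 CPM, ribosomal protein genes as blue circles, respiratory chain genes as orange triangles and class medians as black bars. The medians climb to 0.55 over 1500 and up to 2700 nt after -2.38 up to 300 nt, and both gene groups follow the slope of the cloud.

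To ask which messages stood apart from others of their length, the median change over 50 bins of coding length was removed in each library. On that scale 4834 genes were higher and 5760 lower, or 30.8% and 36.7% of 15715 coding genes. The trend was read from genes of at least 1 CPM but removed from every coding gene. A gene near 0 CPM thus takes on a change set by its length, and the shares over all coding genes include such genes. Among the 8982 coding genes of at least 5 CPM 3473 were higher and 2903 lower. Among messages of 600 nt or less and at least 20 CPM without an overlapping gene, those with the highest log2 change before that step, chosen after their values were seen, were Tagln2, Gins1, Prdx2, Rhoa, Cdkn1b and Ptrh2. Rhoa, a small GTPase of the actin cytoskeleton with 582 nt, had 854, 748 and 788 CPM in Heavy against 469, 401 and 484 CPM in Light. Its log2 change was 0.82 (SE 0.12, limma adjusted p = 1.29e-05) and 1.56 with the length trend removed. Among messages over 900 and up to 2700 nt and of at least 20 CPM those with the lowest log2 change, also chosen after their values were seen, were Trim7, Polr2m, Abhd17a, Jund, Tmem183a and Slc25a39. Polr2m, a factor bound to RNA polymerase II, had 61.0, 67.2 and 67.9 CPM in Heavy against 294, 396 and 324 CPM in Light. With 1101 nt it stood at -2.34 (SE 0.15, limma adjusted p = 5.72e-09) and at -2.42 with the trend removed. Jund, an AP-1 transcription factor, stood at -2.18 (SE 0.18, limma adjusted p = 4.74e-08).

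Ribosomal protein genes were spread over almost the whole range. Of 79, 54 were lower and 15 higher in Heavy, with a median of -1.12 against -0.01 over all genes tested, and their order followed coding length (Spearman's rho 0.92). All 9 with up to 300 nt were lower, as were 41 of 48 over 300 and up to 600 nt, whereas 11 of 19 over 600 and up to 900 nt were higher. Rps29, of the small subunit, had 80.6, 98.2 and 76.7 CPM in Heavy against 612, 966 and 734 CPM in Light. Rpl3, one of the longest ribosomal proteins, had 2981, 2744 and 2848 CPM in Heavy against 846, 777 and 814 CPM in Light. The pools separated completely for both genes, in opposite directions. Rps29 changed by -3.15 (SE 0.20, limma adjusted p = 4.76e-09) and Rpl3 by 1.81 (SE 0.11, limma adjusted p = 4.09e-09). With the length trend removed 36 of the 79 were higher and 17 lower. Their median was then 0.20, against -0.07 over all coding genes and 0.10 over those of at least 5 CPM. Ribosomal proteins have many near-identical pseudogenes, and how the authors counted shared reads is not given, so single values are uncertain.

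The same slope held within 2 other groups of small proteins. Of 78 mitochondrial ribosomal protein genes 51 were lower and 20 higher (median -0.95, rho with coding length 0.85), and of 75 respiratory chain subunits 55 were lower and 13 higher (median -1.54, rho 0.90). Ndufc1, a small accessory subunit of complex I with 231 nt, had 15.9, 15.7 and 13.5 CPM in Heavy against 107, 158 and 124 CPM in Light (-3.01, SE 0.17, limma adjusted p = 4.09e-09). Atp5b, the catalytic beta subunit of ATP synthase with 1590 nt, had 2438, 2339.6 and 2270.3 CPM in Heavy against 653, 598 and 582 CPM in Light (1.94, SE 0.12, limma adjusted p = 4.09e-09). These genes lay near the opposite ends of the list, which ran between -3.13 and 1.94. Without the length trend neither group leaned to a side: 30 mitochondrial ribosomal protein genes were higher and 27 lower, and 27 respiratory chain genes were higher and 27 lower.

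The most Heavy-sided messages had coding regions of middle length. The 12 highest named genes were Anxa5, Impdh2, Eif4a3, Adh5, Pfkl, Hnrnpa2b1, Wdr46, Ahcy, Ubb, Prkar1a, Lrwd1 and Pepd, with coding regions of 918 to 2343 nt. Anxa5, a calcium-dependent membrane-binding protein, had 744, 688 and 709 CPM in Heavy against 171, 151 and 165 CPM in Light (2.13, SE 0.18, limma adjusted p = 5.60e-08). Impdh2, the rate-limiting enzyme of guanine nucleotide synthesis, had 865, 823 and 872 CPM in Heavy against 220.5, 181 and 188 CPM in Light (2.12, SE 0.13, limma adjusted p = 4.09e-09). Eif4a3, the RNA helicase of the exon junction complex, had 495, 476 and 475 CPM in Heavy against 123, 104 and 105 CPM in Light (2.11, SE 0.12, limma adjusted p = 4.09e-09). For each, every Heavy library was higher than every Light library.

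**Figure D2:**
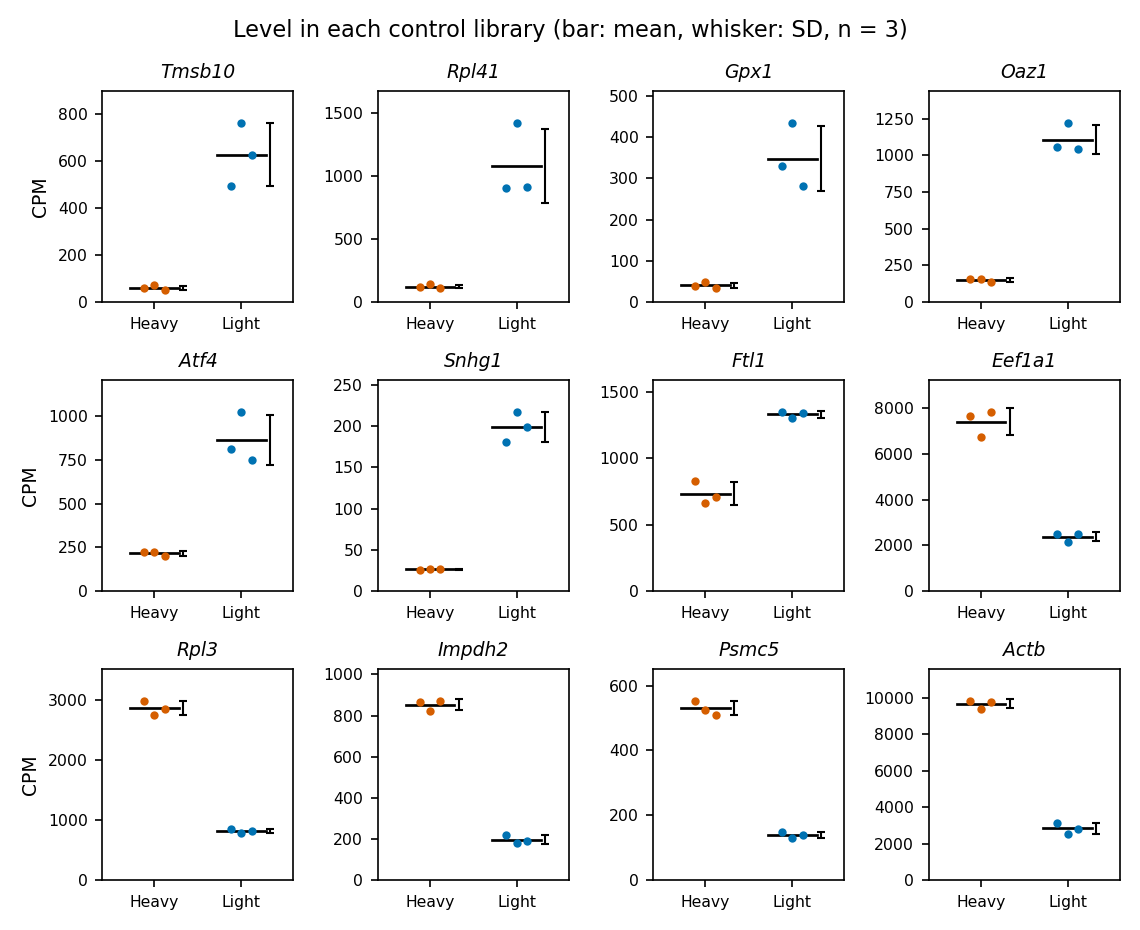
Level in CPM (vertical axes, each starting at 0) of 12 genes in the 3 Heavy and 3 Light control libraries, with dots for libraries, bars for means and whiskers for the SD (n = 3). The pools do not overlap for any of the 12: Tmsb10, Rpl41, Gpx1, Oaz1, Atf4, Snhg1 and Ftl1 are lower in Heavy and Eef1a1, Rpl3, Impdh2, Psmc5 and Actb higher.

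Glycolysis, the proteasome, the aminoacyl-tRNA synthetases and the chaperonins were higher in Heavy with few exceptions, unlike the larger ribosomal and respiratory chain lists. Of 19 glycolysis genes 17 were higher and none lower, with a median of 1.44 against -0.01 over all genes tested. Ldha, lactate dehydrogenase A, had 2619, 2449 and 2579.6 CPM in Heavy against 747, 642 and 651 CPM in Light (1.91, SE 0.11, limma adjusted p = 4.09e-09). Of 31 proteasome subunits 27 were higher and none lower (median 1.28), and of 21 aminoacyl-tRNA synthetases, which charge tRNAs, 20 were higher and none lower (median 1.20). Psmc5, an ATPase of the proteasome base, had 553, 525 and 510.3 CPM in Heavy against 149, 130.1 and 140.1 CPM in Light (1.92, SE 0.12, limma adjusted p = 4.09e-09). Of 23 chaperonin and heat shock genes 20 were higher, led by the CCT subunits Cct3 and Cct7 (1.98 each, limma adjusted p = 1.15e-08 and 9.63e-09). The 1 lower member was Hspe1, the small mitochondrial co-chaperonin with 309 nt, at -1.97 (SE 0.20, limma adjusted p = 2.98e-07). These groups kept their side without the length trend, with medians of 1.23, 1.26, 0.84 and 0.84.

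**Figure D3:**
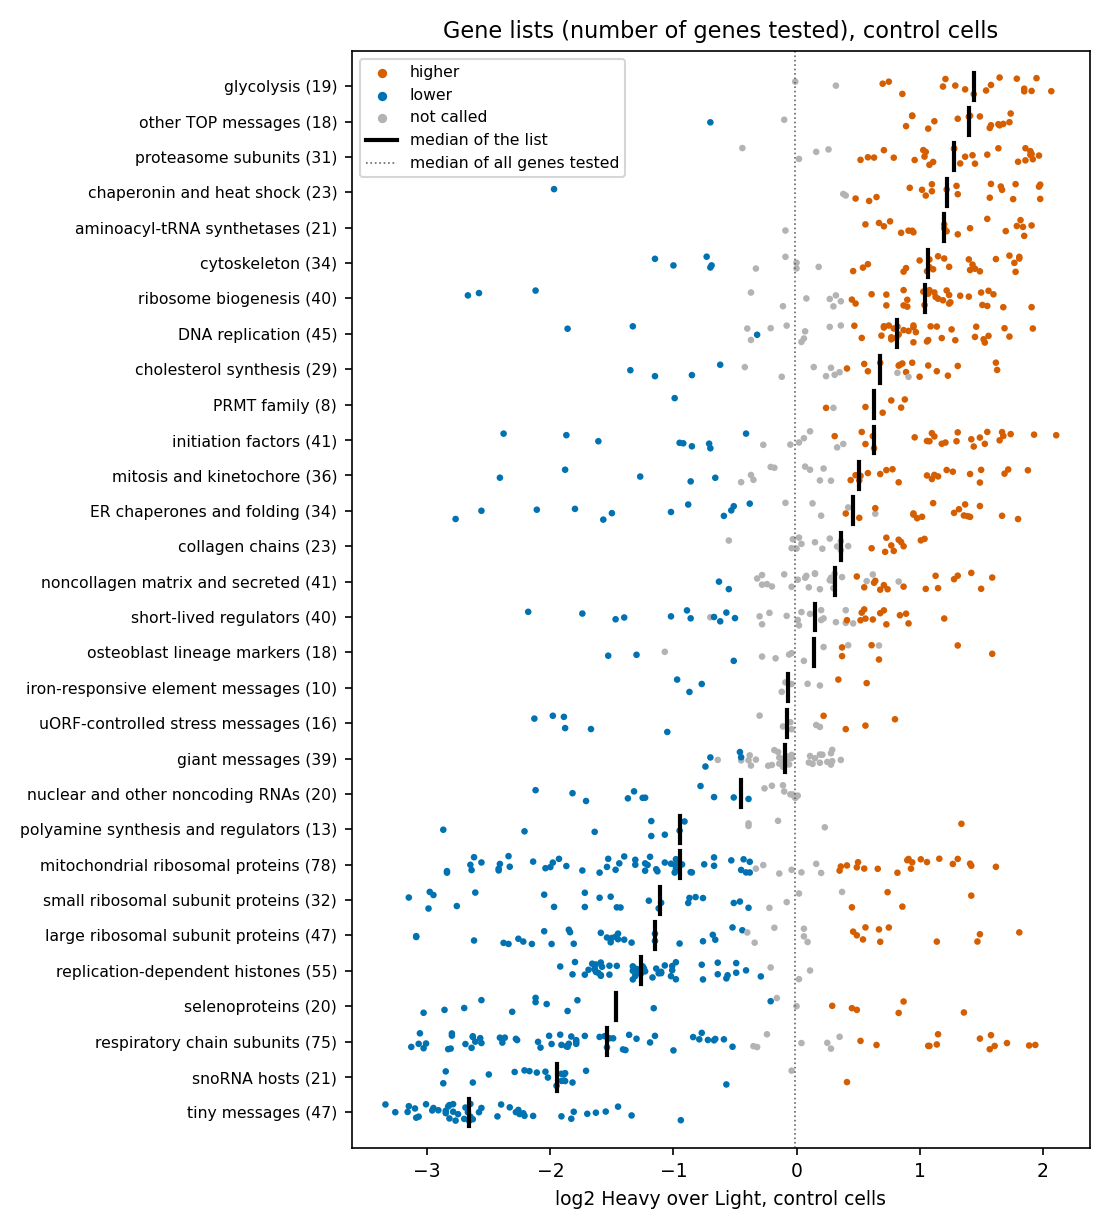
Log2 Heavy over Light in control cells (horizontal axis) for the genes tested of each list (rows, number of genes in brackets), coloured by call, with a black bar at the list's median and a dotted line at the median of all genes tested (-0.01). Tiny messages (median -2.66) and glycolysis genes (1.44) sit at the opposite ends, and the ribosomal, respiratory chain and ER lists span both sides.

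Other TOP messages, a list of elongation factors, RNA-binding proteins and a few further genes, lay on the side opposite to most ribosomal proteins. Of 18 TOP messages other than ribosomal proteins 16 were higher and 1 lower, with a median of 1.40. Eef1a1, the factor that delivers charged tRNAs, had 7641, 6743 and 7841 CPM in Heavy against 2486, 2155 and 2515 CPM in Light (1.64, SE 0.12, limma adjusted p = 1.36e-08). Eef2, the translocation factor, changed less (0.94, SE 0.15, limma adjusted p = 5.95e-05). The 1 lower member was Pabpc1, the poly(A)-binding protein, which is known to bind its own message. It had 90.4, 118 and 133 CPM in Heavy against 146, 191 and 219.9 CPM in Light. The log2 change was -0.70 (SE 0.24, limma adjusted p = 0.0222), a call lost without Heavy 1, Light 2 or Light 3 (limma adjusted p = 0.105, 0.0614 and 0.0980). A TOP start, a C followed by 4 of C or T on the sense strand from the annotated start, was found in the RefSeq promoter table (GRCm38.p6) for 14 of 58 ribosomal protein genes, or 24.1%, and for 3.07% of 13324 genes tested. Annotated starts thus mark few of these messages, and the class was not compared further.

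Among 41 initiation factor genes 25 were higher and 9 lower. Eif4a1, the helicase of the cap-binding complex, changed by 1.53 (SE 0.10, limma adjusted p = 6.56e-09). The lower members include small proteins that bind or restrain the ribosome or the cap: Eif4ebp1, the repressor of the cap-binding factor Eif4e, had 103, 100.2 and 82.0 CPM in Heavy against 467, 570.1 and 463 CPM in Light (-2.38, SE 0.16, limma adjusted p = 7.18e-09). Eif1, which guards start codon choice, changed by -1.87 (SE 0.16, limma adjusted p = 4.78e-08), and by 0.07 with the length trend removed. Ribosome biogenesis genes were higher in 30 and lower in 3 of 40 cases, with Bop1 at 1.91 (SE 0.14, limma adjusted p = 1.29e-08) and the small box H/ACA proteins Nop10 at -2.67 and Nhp2 at -2.12 (limma adjusted p = 4.20e-08 and 2.26e-06).

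Selenoprotein messages split by where their selenocysteine codon lies. In these messages a TGA inside the reading frame is read as selenocysteine with the help of a hairpin in the 3′ UTR, and otherwise ends translation. Of 26 listed genes 22 were in the table and 20 were tested, of which 6 were higher and 12 lower (median -1.47). In GENCODE coding regions, 6 of the 20 had the TGA among the last 10 codons, and 5 of those were higher and 1 lower (Vimp). Of the other 14, where more of the protein follows the TGA, 1 was higher (Sepn1) and 11 lower. These 14 include Gpx3 (called lower), Dio3 and Gpx2, with pool means of at most 0.188 CPM. Gpx2 was at 0 CPM in both pools, and its 0.91 with the length trend removed comes from that step alone. The classes were drawn after the values were seen, and their median changes of 0.66 and -2.08 are a description. The classes also differ in length, and with the length trend removed their medians were 0.48 and -0.98.

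Windows round the TGA (capitals) are shown for a contrasting set, from GENCODE M21 transcripts on GRCm38. Gpx1 (chr9:108339436-108339468, plus strand) and Gpx4 (chr10:80054722-80054754, plus) encode glutathione peroxidases, with the TGA at codons 47 of 201 and 73 of 197. Sephs2 (chr7:127273716-127273748, minus) encodes an enzyme that makes the selenium donor, with the TGA at codon 63 of 452. Txnrd1 (chr10:82896022-82896045, plus) encodes thioredoxin reductase, with the TGA at codon 498 of 499, just before the stop.
Gpx1: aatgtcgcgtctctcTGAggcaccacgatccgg
Gpx4: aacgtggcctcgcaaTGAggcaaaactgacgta
Sephs2: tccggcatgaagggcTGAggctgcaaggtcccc
Txnrd1: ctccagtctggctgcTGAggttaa

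Gpx1 had 40.4, 48.1 and 35.5 CPM in Heavy against 329, 435 and 281 CPM in Light (-3.03, SE 0.18, limma adjusted p = 4.38e-09). Gpx4, which removes lipid peroxides, had 76.6, 86.1 and 69.1 CPM in Heavy against 535, 662 and 513 CPM in Light (-2.86, SE 0.17, limma adjusted p = 4.09e-09). Sephs2 had 24.7, 23.8 and 22.7 CPM in Heavy against 101, 117 and 101 CPM in Light (-2.12, SE 0.17, limma adjusted p = 3.19e-08). Its coding region of 1359 nt falls in a class whose median was positive, and with the length trend removed it stood at -2.55. Txnrd1 had 735, 670.1 and 773 CPM in Heavy against 417, 337 and 442 CPM in Light (0.87, SE 0.19, limma adjusted p = 9.12e-04). Selk, with 285 nt and the TGA 2 codons before the end, had 168, 157 and 149 CPM in Heavy against 115, 105 and 117 CPM in Light. It was thus higher in Heavy (0.49, SE 0.16, limma adjusted p = 0.0147) although 195 of 197 messages of that length were lower.

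**Figure D4:**
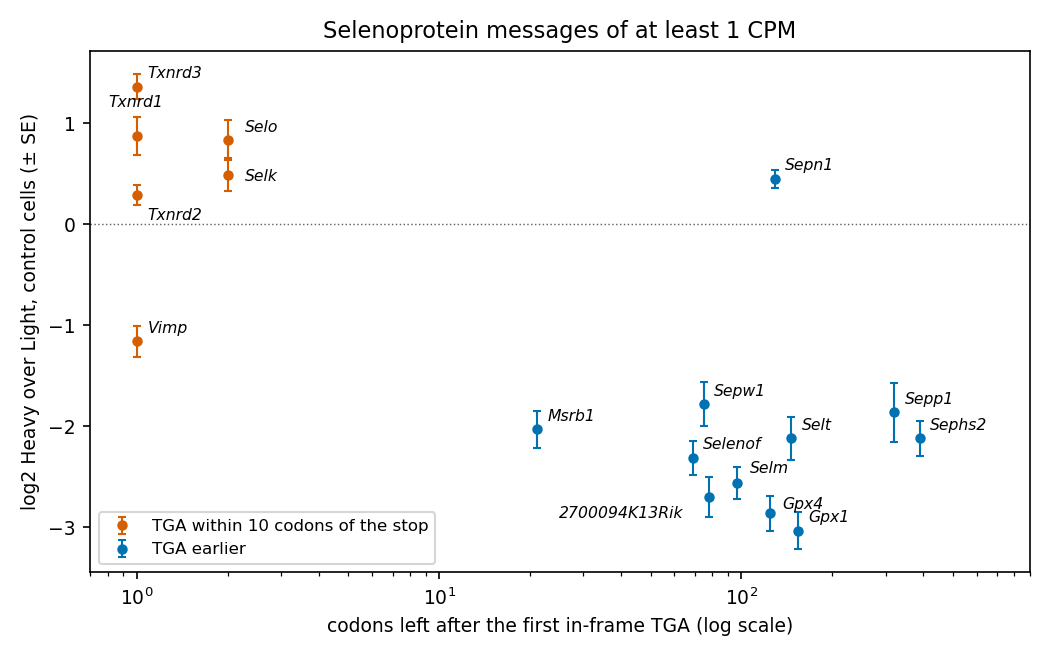
Log2 Heavy over Light in control cells with its SE (vertical axis) against the number of codons left after the first in-frame TGA on a log scale (horizontal axis), for selenoprotein genes of at least 1 CPM. Messages with the TGA near the stop lie above 0 except Vimp (-1.16), and those with an earlier TGA lie between -3.03 and -1.78 except Sepn1 (0.45).

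Stress response messages listed as controlled by upstream reading frames (uORFs) differed among themselves. Of 16 listed genes 6 were lower, 4 higher and 6 not called. Among the higher ones, Uchl1 (0.80) and Eprs (0.56) had 0 uORFs in the transcript sequence used here. The list's median was -0.08, or 0.00 under median-of-ratios scaling. With the length trend removed it was -0.33, with 7 lower and 2 higher. The 2 higher were Uchl1 (1.34, limma adjusted p = 2.03e-04) and Eprs (0.36, limma adjusted p = 0.0463). Before that step the 6 lower members were Slc35a4, Atf4, Atf5, Ddit3, Ppp1r15a and Cebpb. Atf4, the transcription factor that is made when initiation is restrained, had 224, 224 and 200.3 CPM in Heavy against 812, 1025 and 750.0 CPM in Light (-1.98, SE 0.15, limma adjusted p = 2.02e-08). With 1050 nt of coding length its change was -2.07 without the length trend. Ppp1r15a, which directs the phosphatase that ends the stress response, had 30.4, 30.8 and 32.1 CPM in Heavy against 103, 105 and 94.8 CPM in Light (-1.67, SE 0.10, limma adjusted p = 4.09e-09). Its constitutive relative Ppp1r15b was higher in Heavy (0.22, SE 0.09, limma adjusted p = 0.0420), but was not among the 2 genes higher with the length trend removed. Ppp1r15b also has uORFs, with 3 counted in its 5′ UTR sequence against 6 in Ppp1r15a. Ddit3 changed by -1.88 (SE 0.15, limma adjusted p = 3.23e-08), and it overlaps Mbd6 and Mars.

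Over all coding genes of at least 5 CPM the number of uORFs counted in the transcript sequence went with the change. The GC content of the 5′ UTR did so to a like degree. Spearman's rho was -0.12 for uORFs (8982 genes) and -0.11 for that GC content (8696 genes), and -0.18 and -0.19 with the length trend removed. Every ATG of the 5′ UTR with an in-frame stop before the coding start was counted. Frames that share a stop thus count more than once, and frames that run into the coding region are left out. The median log2 change was 0.27 in 5159 genes with none, 0.10 in 1723 with 1, -0.06 in 797 with 2 and -0.09 in 1303 with 3 or more. With the length trend removed the medians were 0.22, 0.02, -0.11 and -0.13. These differences are small beside those of coding length, and single genes went against them: Anxa5, the most Heavy-sided named gene, has 3 uORFs by this count.

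Genes of polyamine metabolism, some of whose messages are controlled by polyamine levels, were mostly lower in Heavy. Of 13, 8 were lower and 1 higher, with a median of -0.95 and, with the length trend removed, of -1.30. Amd1 and Amd2 had the same values and cannot be told apart, and counted once they leave 7 of 12 lower with a median of -0.93. Oaz1, the antizyme made through a frameshift that polyamines promote, had 157, 160.1 and 134 CPM in Heavy against 1057, 1221 and 1040.2 CPM in Light (-2.87, SE 0.21, limma adjusted p = 1.47e-08). Its values were nearly those of Oaz1-ps, so the copies cannot be separated here. Oaz2, a second antizyme, had 41.7, 47.2 and 39.3 CPM in Heavy against 184, 241 and 184 CPM in Light (-2.21, SE 0.15, limma adjusted p = 7.12e-09). Odc1, the enzyme that antizyme inhibits, changed by -0.95 (SE 0.29, limma adjusted p = 0.0103). Azin1, which sequesters antizyme, overlapped between the pools at 111, 138 and 159 CPM in Heavy and 139, 135 and 176 CPM in Light (-0.15, SE 0.22, limma adjusted p = 0.661). Amd1, the decarboxylase that supplies aminopropyl groups, had 53.6, 74.4 and 71.0 CPM in Heavy against 125, 156 and 174 CPM in Light (-1.18, SE 0.21, limma adjusted p = 1.44e-04).

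The uORF of Amd1 and the shortest uORF of Atf4 are shown as examples of how short such frames can be, with start and stop codons in capitals. In mammals the Amd1 uORF encodes a hexapeptide that stalls ribosomes. They lie at chr10:40302155-40302175 (minus strand) and chr15:80255582-80255593 (plus strand) of GRCm38.
Amd1: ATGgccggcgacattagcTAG
Atf4: ATGgcgtatTAG

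Ferritin messages were lower in Heavy to a like degree. An iron-responsive element in the 5′ UTR lets iron regulatory proteins block initiation when iron is scarce. Fth1, the heavy chain, had 352, 318 and 289 CPM in Heavy against 611, 625 and 637 CPM in Light (-0.97, SE 0.20, limma adjusted p = 5.00e-04). Ftl1, the light chain, had 829, 664 and 706 CPM in Heavy against 1351, 1304 and 1345 CPM in Light (-0.87, SE 0.20, limma adjusted p = 0.00129). Both have about the coding length (549 and 552 nt) at which most messages were lower, and without the length trend their changes were -0.06 and 0.04. Of the 10 listed iron-responsive genes 3 were lower, 2 higher and 5 not called. The median of -0.07 turned to 0.03 under quantile normalization. The elements of both ferritin messages are shown with the 6 bases of the loop in capitals (chr19:9982732-9982761, plus strand, and chr7:45459778-45459807, minus strand, GRCm38). The pattern that found them, a C, 5 bases of any kind, CAGTG and any base, searched on the sense strand only, occurs in the annotated 5′ UTRs of 8.69% of 14649 genes.
Fth1: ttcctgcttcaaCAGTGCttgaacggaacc
Ftl1: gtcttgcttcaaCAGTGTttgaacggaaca

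Noncoding transcripts were Light-sided. Among genes that RefSeq classes as long noncoding and of at least 5 CPM, 90 of 134 were lower and 24 higher (median -1.14). All 19 tested snoRNA host genes without a coding region were lower, with a median of -2.02. Snhg1, which carries snoRNAs in its introns, had 25.8, 26.6 and 26.4 CPM in Heavy against 181, 217 and 199 CPM in Light (-2.87, SE 0.29, limma adjusted p = 2.88e-07). Of 20 other nuclear or noncoding RNAs 11 were lower and none higher. Neat1, the scaffold of nuclear paraspeckles, had 8.26, 8.26 and 7.85 CPM in Heavy against 22.6, 32.5 and 32.6 CPM in Light (-1.71, SE 0.21, limma adjusted p = 3.38e-06). Malat1 had 1.08, 0.448 and 0.746 CPM in Heavy against 1.14, 2.72 and 10.4 CPM in Light. Its limma adjusted p = 0.0286 became 0.200 without Light 3, where the change was -0.70 in place of -1.37.

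Replication-dependent histone messages, which end in a stem-loop in place of a poly(A) tail, were lower in 52 of 55 cases and higher in none, with a median of -1.26. Hist2h3c1 and Hist2h3c2 had the same values, and counted once they leave 51 of 54 lower. Only 8 of the 55 reached 5 CPM. Hist1h2bc had 5.17, 4.59 and 3.85 CPM in Heavy against 18.3, 21.5 and 19.8 CPM in Light (-1.92, SE 0.17, limma adjusted p = 9.24e-08). Their coding regions are short (median 393 nt), and with the length trend removed 34 were higher and 1 lower. That count cannot show a side for their length. The log2(CPM + 1) scale understates the change of such low genes, whose median was -2.05 with voom on recovered reads. The trend taken away was read from genes of at least 1 CPM. The labels name an Illumina Truseq v2 kit and do not say how RNA was selected for it.

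Collagen and other matrix genes were seldom lower in Heavy. The share called higher was near that of all genes of at least 5 CPM, of which 3695 of 9236 were higher and 3299 lower. Of 23 collagen chains 10 were higher and none lower (median 0.36). Col1a1, the main chain of bone collagen, had 1042, 1571 and 1366 CPM in Heavy against 1004, 896 and 699 CPM in Light (0.61, SE 0.24, limma adjusted p = 0.0449). The call was lost without Heavy 2, Heavy 3, Light 2 or Light 3 (limma adjusted p = 0.174, 0.109, 0.0732 and 0.179). Of 41 other matrix and secreted genes 16 were higher and 2 lower. Bgn, the proteoglycan biglycan, had 2789, 2845 and 2723 CPM in Heavy against 1015, 981 and 963 CPM in Light (1.50, SE 0.11, limma adjusted p = 1.06e-08), and Sparc, osteonectin, changed by 1.59 (SE 0.24, limma adjusted p = 2.15e-05). The cytoskeletal list was higher in 24 and lower in 5 of 34, with Actb at 9824, 9369 and 9772 CPM in Heavy against 3151, 2531 and 2807 CPM in Light (1.78, SE 0.12, limma adjusted p = 6.96e-09).

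Genes of the endoplasmic reticulum again sorted by length, with a rho of 0.81 over 34 genes, of which 17 were higher and 12 lower. Rpn1, a subunit of the enzyme that attaches N-glycans (1827 nt), changed by 1.41 (SE 0.11, limma adjusted p = 2.16e-08). Sec61g, a small subunit of the channel through which secreted proteins enter (207 nt), changed by -2.77 (SE 0.22, limma adjusted p = 2.36e-08). The large channel subunit Sec61a1 stood at 1.32 (SE 0.11, limma adjusted p = 3.97e-08), so the subunits of one channel differed in direction. Manf, a secreted factor of the unfolded protein response, had 157, 152 and 137 CPM in Heavy against 610.1, 688 and 639.9 CPM in Light (-2.11, SE 0.15, limma adjusted p = 9.14e-09), and -1.20 with the length trend removed.

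Cell division genes were mostly Heavy-sided: 33 of 45 DNA replication genes were higher and 3 lower, and 21 of 36 mitosis genes were higher and 5 lower. Pcna, the sliding clamp, changed by 1.92 (SE 0.13, limma adjusted p = 9.13e-09) and Cdk1, the mitotic kinase, by 1.72 (SE 0.11, limma adjusted p = 5.87e-09). Cenpa, the short centromeric histone, changed by -2.41 (SE 0.23, limma adjusted p = 1.89e-07). Of 40 short-lived regulators 13 were higher and 11 lower. Ccnd1, cyclin D1, had 208, 214 and 209 CPM in Heavy against 92.2, 88.0 and 93.0 CPM in Light (1.20, SE 0.19, limma adjusted p = 4.49e-05). Myc overlapped between the pools (0.40, SE 0.18, limma adjusted p = 0.0771). In cholesterol synthesis 16 of 29 were higher, with the enzyme Mvd at 1.62 (SE 0.26, limma adjusted p = 4.59e-05). The 4 lower members included the sterol-sensing regulators Scap at -1.15 (SE 0.13, limma adjusted p = 1.37e-06), despite 3831 nt of coding length, and Insig1 at -1.35 (SE 0.21, limma adjusted p = 3.78e-05).

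Messages of very long coding regions sat near the middle. None of 39 giant messages was higher and 4 were lower in Heavy (Plec, Spen, Dync1h1 and Utrn), with a median of -0.09 that turned to 0.02 under quantile normalization, where 5 were higher and 2 lower. Plec, a cytoskeletal linker, had 79.6, 84.5 and 82.6 CPM in Heavy against 143, 142 and 129 CPM in Light (-0.74, SE 0.16, limma adjusted p = 9.46e-04). Ahnak, a giant scaffold protein with 16971 nt, overlapped between the pools (-0.39, SE 0.17, limma adjusted p = 0.0605). Whether Ahnak was called depended on the setting. Its limma adjusted p was 0.0244 with replicate numbers as a block and 0.0133 with the length trend removed. After quantile normalization it was 0.162, and after median-of-ratios scaling 0.102.

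Some messages made up less of both pools than of the Total libraries, which the Heavy and the Light comparison share. Heavy and Light were both called lower than Total for 2217 genes, or 12.7% of those tested, 1157 after quantile normalization and 1357 after median-of-ratios scaling. Of 39 giant messages 33 were in that set, and 31 under either scaling. Pabpc1 showed the widest gap among genes of at least 20 CPM in Total without an overlapping gene, a choice made after its values were seen, at 1503, 1265 and 1231 CPM in Total libraries. Its log2 change was -3.55 for Heavy over Total and -2.85 for Light over Total (SE 0.24 each, limma adjusted p = 2.97e-08 and 8.57e-07). Ftl1 had 4585, 4736 and 5192 CPM in Total and Fth1 1791, 1786 and 1873 CPM. Ftl1 changed by -2.73 in Heavy and -1.86 in Light over Total (SE 0.20 each, limma adjusted p = 5.16e-08 and 3.86e-06), and Fth1 by -2.51 and -1.54 (SE 0.20 each, limma adjusted p = 1.04e-07 and 1.66e-05). For comparison, Eef1a1 changed by 0.06 in Heavy (SE 0.12, limma adjusted p = 0.75) and by -1.57 in Light over Total (SE 0.12, limma adjusted p = 5.11e-07). Where the missing share of these messages lay on the gradient was not tested.

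Prmt1, the gene deleted in knockout cells and the main asymmetric arginine methyltransferase, was called higher in Heavy in control cells, a call lost with the length trend removed (0.42, limma adjusted p = 0.0818). In knockout cells it had 64.4, 121 and 145 CPM in Heavy and 166, 229 and 235 CPM in Light, the reverse order of the pools (-0.98, SE 0.21, limma adjusted p = 0.00133). In control cells it had 412, 378 and 370.1 CPM in Heavy against 255, 243 and 218 CPM in Light (0.70, SE 0.21, limma adjusted p = 0.0119). The Total libraries held 147, 176 and 173 CPM in knockout and 256, 277 and 285 CPM in control cells. Which exons were removed is not given, and reads from the rest count toward the gene. Of 8 members of the family tested in control cells 6 were higher in Heavy, or 3 with the length trend removed, and 1 was lower. This was Prmt2, with 34.9, 34.9 and 31.3 CPM in Heavy against 71.1, 68.0 and 65.2 CPM in Light (-0.99, SE 0.12, limma adjusted p = 2.99e-06).

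The sorting of messages was much the same in knockout cells, where 2949 genes were higher and 4694 lower in Heavy, or 16.8% and 26.8%. Of the control calls 6781 were also called in the same direction there, which is 76.4% of the control and 88.7% of the knockout calls. The medians by coding length were nearer 0 in knockout than in control cells in 5 of 7 classes. They were -1.94 in knockout against -2.38 in control cells up to 300 nt, -1.17 against -1.42 over 300 and up to 600 nt, 0.09 against 0.34 over 900 and up to 1500 nt, 0.29 against 0.55 over 1500 and up to 2700 nt and 0.30 against 0.43 over 2700 and up to 4500 nt. The other classes went the other way, with -0.36 in knockout against -0.33 in control cells over 600 and up to 900 nt and 0.29 against 0.18 above 4500 nt. Lists also differed: the median was 0.78 in knockout against 1.40 in control cells for other TOP messages and 0.75 against 1.28 for proteasome subunits, but 0.49 against 0.36 for collagen chains and 0.43 against 0.31 for other matrix genes. These differences of medians were not tested. A test of the difference itself (knockout minus control change) called 62 genes higher and 441 lower, or 0.354% and 2.52% of the genes tested. That count rested on single libraries. It was 40, 29 and 36 without Heavy control 1, 2 and 3, 18 without Light control 2 and 7 without Light control 3. It was 2011, 297 and 167 without Heavy knockout 1, 2 and 3, and 87 without Light knockout 1. Heavy knockout 1 lay farthest from its group mean (root mean square deviation 0.349 log2), and without both knockout libraries numbered 1 the count was 1872. After median-of-ratios scaling it was 51, so the extent of the difference cannot be fixed from these data.

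**Figure D5:**
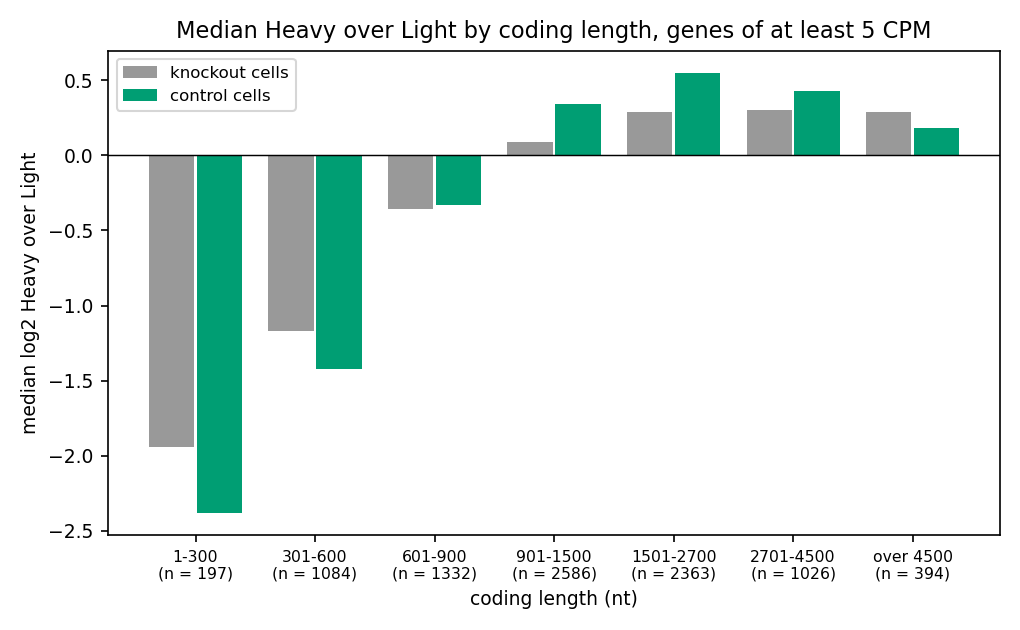
Median log2 Heavy over Light (vertical axis) by class of coding length in nt (horizontal axis, number of genes of at least 5 CPM below each class), with knockout cells as grey and control cells as green bars. In both, short messages lie below 0 and longer ones above, and the bars of knockout cells are the shorter ones up to 300 nt (-1.94 against -2.38) and over 1500 and up to 2700 nt (0.29 against 0.55), but the longer ones above 4500 nt (0.29 against 0.18).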

How the data were processed

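The authors deposited a single table of 19862 genes and 18 libraries. Its values are log2(CPM + 1) by their arithmetic: undoing the log2 of the deposited values gives 1000000 per library, and whole reads for 100% of values (tolerance 0.1). Per the submitters' processing notes, STAR, edgeR and the mm10 build were used. The read counter, annotation and strandedness remain not given in the sources used here. Testing took genes with a value over 0 in 3 or more libraries and used limma 3.58.1 in R 4.3.3 (trend and robust variances, 6 group means over 18 libraries, Benjamini-Hochberg adjustment). A fit of the recovered reads (voom) was an alternative. A log2 change is on the log2(CPM + 1) scale, which understates low genes. The fit was tested on simulated data (17688 genes for Heavy over Light in control cells), where it recovered 85% of changes of log2 1 and 33% of log2 0.585, with 6 false calls. Each change was put into 100 genes of at least 5 CPM, with all other genes equal between the pools and libraries independent. In the data 8879 genes were called and same-numbered libraries deviated together, so these figures need not hold there. Coding lengths, UTRs and uORFs came from 1 GENCODE M21 transcript per gene, the principal one unless its coding region was under 0.5 of the longest. Tables were made with pandas 2.3.3, scipy 1.17.1 and numpy 2.4.6 in Python 3.11.15, and figures with matplotlib 3.10.9. The members, lists and tests were chosen with earlier results of these data known. Of the genes the naming rule takes (the 12 highest and 12 lowest called genes of at least 5 CPM that are not gene models and whose Heavy and Light values do not overlap, the 3 list members of lowest p per direction, and a fixed set) the text prints part. Protein classes were not made. Same-numbered Heavy and Light control libraries deviated together (correlations 0.368 to 0.471, against -0.458 to 0.175 for different numbers). In knockout cells, however, Heavy 3 went more with Light 2 (0.545) than with Light 3 (0.263). The main fit did not pair libraries by number, and the replicate block was an alternative.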

Additional observations from a re-analysis of the deposited data

Results flagged for a closer look

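For 54 of the named genes the Heavy over Light change differed between knockout and control cells in the limma test of the difference itself (adjusted p under 0.05 over all genes tested). The values below are knockout minus control changes in log2 units, and 51 of the 54 were negative. Many of these genes were named for a strong control change, and the control libraries enter this difference with a minus sign, so the choice of genes partly fixes that tally. Over all genes tested 62 were higher (0.354%) and 441 lower (2.52%). The number of such calls over all genes was 503 and depended on the processing and on single libraries, so each value is to be read with that limit. No explanation was tested.

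Prmt1, the deleted gene, had the largest difference of the 54 at -1.68, and its relative Prmt3 stood at -0.51. Among the most Heavy-sided genes the difference was -1.0 for Anxa5, -1.05 for Impdh2, -0.92 for Eif4a3, -0.98 for Adh5, -0.79 for Wdr46, -0.94 for Ubb, -0.86 for Prkar1a, -0.82 for Lrwd1 and -0.90 for Pepd. In control cells these genes were higher in Heavy by log2 changes between 1.99 and 2.13.

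Longer ribosomal proteins had differences of -0.76 (Rpl3), -0.71 (Rpl4), -0.73 (Rpl5), -0.68 (Rps4x) and -0.80 (Rpsa). Translation factors had -0.75 (Eif3h), -0.91 (Eef1g), -0.65 (Eif3f) and -0.58 (Eif4a1), and the tRNA synthetases Hars, Farsa and Wars had -0.73, -0.73 and -0.85. In mitochondria the values were -0.55 for Mrpl19, -0.75 for Mrps5, -0.89 for Atp5b, -0.78 for Ndufa9 and -0.71 for Uqcrc2.

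The proteasome ATPases Psmc1, Psmc5 and Psmc3 had -0.74, -0.87 and -0.83, and the chaperonin subunits Cct7 and Cct2 had -0.82 and -0.73. The glycolytic enzymes Ldha, Gapdh and Pgk1 had -0.90, -0.85 and -0.90. Cytoskeletal genes had -0.82 (Acta2), -0.89 (Actb) and -0.88 (Tpm2), matrix and protease genes -0.96 (Bgn) and -0.83 (Ctsk), and ER genes -0.81 (Rpn1), -0.77 (Sec61a1) and -0.75 (Rpn2).

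Replication and division genes had -0.60 (Prim2), -0.63 (Pole2), -0.85 (Pcna), -0.60 (Ccnb1) and -0.79 (Cdk1), and ribosome biogenesis genes -0.68 (Polr1c) and -0.76 (Bop1). The 3 positive differences were 0.57 for the stress regulator Ppp1r15a, 0.92 for the giant cytoskeletal linker Plec and 0.80 for Dync1h1, the heavy chain of dynein. All 3 were lower in Heavy in control cells.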

How the results depend on the processing

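The number of genes called between Heavy and Light in control cells was 8879, between 8004 and 8628 without single libraries and between 7253 and 10594 under the other alternatives. In knockout cells it was 7643, between 6624 and 7953 without single libraries and between 5307 and 8329 otherwise. The difference between knockout and control changes was not stable. Its 503 calls became 152 after quantile normalization, 51 after median-of-ratios scaling, 335 with voom on recovered reads, 756 without a variance trend and 18 with the length trend removed. They became 8 with the libraries of the comparison alone, 10 with those and a replicate block, 1872 without the knockout libraries numbered 1, and 7 to 2011 without single libraries. Among genes that overlap no other they were 322, an alternative chosen after seeing the data. The 2217 genes lower in both pools than in Total became 1157 (quantile normalization), 1357 (median-of-ratios scaling) and 1058 (length trend removed), and 1654 to 2206 without single libraries. That count and its alternatives were also chosen after seeing the data. The replicate block gave 4435 higher and 4918 lower calls in control cells and moved no count by over 1.5 times over the 18 libraries. Of 3422 values of the 173 named genes under alternatives, 3335 kept direction and side of the threshold, 63 lost and 15 gained the call. The other 9 changed direction, all with the length trend removed: Ftl1 (0.04), Myl6 (0.21), Pfn1 (0.65), Myl12b (0.40), Eif1 (0.07), Rpa3 (0.08), Ube2c (0.05), Mafk (0.34) and Myc (-0.03). The cause of the other moves was not tested. Depth limits genes under 1 CPM, which in these libraries rest on few reads.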
